A study of Mus musculus with 4 samples.

Results

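The genes described here are 38 genes of glucose use and of the response to low oxygen, taken as a fixed list from the 16798 genes of the count table. All 38 were in the table. The list names genes by function and uses no measured value, although earlier results of these data were known when it was drawn up. By role they were 4 sugar transporters of the Slc2a family, 9 genes acting from hexokinase to fructose bisphosphate, 8 from aldolase to pyruvate kinase, 5 of lactate and pyruvate use, 4 of the pentose phosphate pathway and 8 of the hypoxia response. A wider list of 64 related genes, of which 58 were in the table, was read beside them.

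The cells were brain immune cells of mice aged 18 months, and every mouse carried the APP/PS1 transgenes, which drive amyloid deposition. One group, AD, was APP/PS1 alone. The other, ADAM, was APP/PS1 Axl-/- Mertk-/-, lacking the receptor tyrosine kinases Axl and Mertk. Each group had 2 libraries of CD45+ sorted cells, each from 2 pooled cortices digested and cleared of debris on Percoll, and no mouse without the transgenes was among them. Messenger RNA was counted from its 3′ end as unique molecular identifiers (UMIs) with the 10x Genomics v3.1 chemistry. The depositors' annotation gave 1 of 9 cell classes to 14628 of 15451 cells and 1 of 7 microglia states, numbered 0 to 6, to 9077 microglia.

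Glycolysis splits glucose into pyruvate in a chain that starts with transport into the cell and phosphorylation by hexokinase. Pyruvate then either enters mitochondria or is reduced to lactate, which leaves the cell through monocarboxylate transporters, and the pentose phosphate pathway branches off to make NADPH and ribose. When oxygen is short, or when innate immune receptors signal, the transcription factor subunit encoded by Hif1a accumulates and binds a short core motif near many glycolytic genes. Microglia are known to shift towards glycolysis on activation.

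Promoter windows of 5 members are shown because they hold, or lack, ACGTG, a form of the core letters read by hypoxia-inducible factors. In addition, 2 of them, Ldha and Ldhb, encode alternative subunits of 1 enzyme. Each window is the 250 bases before the RefSeq start on GRCm38.p6, printed 5′ to 3′ on the gene's strand, and none overlaps an annotated exon. Capitals mark ACGTG or its reverse complement CACGT, and CACGTG holds both with an overlap. Other forms of the core, such as GCGTG, were not searched, marked or counted.
Ldha: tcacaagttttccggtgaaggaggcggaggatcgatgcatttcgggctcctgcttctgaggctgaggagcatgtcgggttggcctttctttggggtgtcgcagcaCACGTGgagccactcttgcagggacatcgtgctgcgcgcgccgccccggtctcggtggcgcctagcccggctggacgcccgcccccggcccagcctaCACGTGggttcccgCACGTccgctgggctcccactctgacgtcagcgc
Pgk1: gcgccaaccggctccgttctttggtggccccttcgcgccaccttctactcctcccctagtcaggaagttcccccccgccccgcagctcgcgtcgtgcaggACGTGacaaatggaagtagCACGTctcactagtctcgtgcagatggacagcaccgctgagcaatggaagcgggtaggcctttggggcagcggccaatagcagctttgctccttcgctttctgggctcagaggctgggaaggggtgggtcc
Egln3: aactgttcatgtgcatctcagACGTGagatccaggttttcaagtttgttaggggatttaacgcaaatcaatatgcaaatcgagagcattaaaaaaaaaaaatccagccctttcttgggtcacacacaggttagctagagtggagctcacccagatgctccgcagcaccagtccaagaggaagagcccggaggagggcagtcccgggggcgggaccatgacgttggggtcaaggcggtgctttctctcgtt
Hk2: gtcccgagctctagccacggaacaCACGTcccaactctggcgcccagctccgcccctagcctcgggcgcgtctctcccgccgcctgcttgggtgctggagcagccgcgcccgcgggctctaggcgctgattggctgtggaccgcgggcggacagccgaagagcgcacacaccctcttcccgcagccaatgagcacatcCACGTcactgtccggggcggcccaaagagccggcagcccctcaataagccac
Ldhb: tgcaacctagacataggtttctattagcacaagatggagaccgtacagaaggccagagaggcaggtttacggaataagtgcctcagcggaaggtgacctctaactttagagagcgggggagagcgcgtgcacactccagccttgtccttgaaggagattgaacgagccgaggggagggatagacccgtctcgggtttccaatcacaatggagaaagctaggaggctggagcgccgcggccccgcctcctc
The windows lie at chr7:46845554-46845803 (plus strand), chrX:106186850-106187099 (plus), chr12:54203875-54204124 (minus), chr6:82774455-82774704 (minus) and chr6:142507958-142508207 (minus). The RefSeq start of Ldha lies 4329 bases inside the gene's outermost GENCODE start, and the others lie within 14 bases of theirs. The Ldha window held ACGTG 2 times and CACGT 3 times, and the Ldhb window held neither. Among the 36 members with a window, 14 (38.9%) held ACGTG on either strand. The share was 16.6% over all 32851 promoter windows and 17.8% over the 21262 windows of protein-coding genes. No share was taken over the tested genes alone. Ndrg1 and Slc2a3 had no window. These letters are a description of the sequence, and no binding was measured.

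Library size was 3241 to 4543 cells and 14963857 to 29831947 UMIs. Levels are given as CPM, the UMIs of a gene per 1000000 UMIs of its cell set, and are relative: fewer transcripts per cell and a shift in the rest of the RNA cannot be told apart. Axl in microglia was 103.8 and 67.1 CPM in the AD libraries and 5.37 and 7.22 CPM in the ADAM libraries, in the direction of the labels. Mertk was 273.9 and 296.3 CPM in AD and 245.6 and 274.4 CPM in ADAM; the counted 3′ end may lie outside the deleted part, so Mertk checks nothing. The 7 microglia identity markers summed to 12538 to 15893 CPM in the microglia of each library. In ADAM 2, markers of neutrophils stood at 792 CPM in microglia, against 15.4 to 54.5 CPM in the other libraries, and its state 2 held 169838 CPM of markers of red blood cells. Any 2 libraries shared 2 to 6 barcodes. Of the members, only Gpi1 (8.41 Mb from Axl, on chromosome 7) lies within 20 Mb of a targeted gene, and any part of that linkage in its genotype values was not tested.

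State 5 and state 0 were the largest microglia states, with 594 to 771 and 766 to 2004 cells per library. Most of the lower glycolytic chain and of the hypoxia genes was higher in state 5, while the fructose transporter gene Slc2a5, the hexokinase genes and Ldhb were lower. Of 35 members with enough UMIs (at least 20 per library over the 2 states), 22 were higher in state 5 in all 4 libraries, 9 were lower in all 4 and 4 were mixed. Over the 10153 genes that met the same minimum, 17.1% were higher and 58.5% lower in all 4 libraries. The members' median log2 ratio of state 5 over state 0 was 0.67, against -0.36 for all genes. A mean ratio of at least 2-fold was seen for 12 members upward (4.93% of all genes) and 2 downward (11.4% of all genes). The states were drawn by the depositors from the same cells' counts, so these ratios are descriptions and carry no test. Each ± beside a state ratio is the SD over 4 libraries.

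Markers of disease-associated microglia summed to 11371 to 18407 CPM in state 5 and 307 to 416 CPM in state 0. The microglia identity markers summed to 9437 to 11962 CPM in state 5 and 16496 to 21069 CPM in state 0. The genes of the immediate early and dissociation list, which respond to tissue handling, were higher in state 0 (4451 to 7378 CPM) than in state 5 (1431 to 2633 CPM), and their part in the ratios was not tested. Scaling all sets together by TMM, which trims extreme genes, shifted the ratios up by 0.26 to 0.39 (log2). Under it the members' median was 0.98, Pgd moved from lower to higher, Hk1 and P4ha1 from lower to mixed, and Pdk1, G6pdx and Higd1a from mixed to higher. The other 29 compared members kept their direction.

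**Figure D1:**
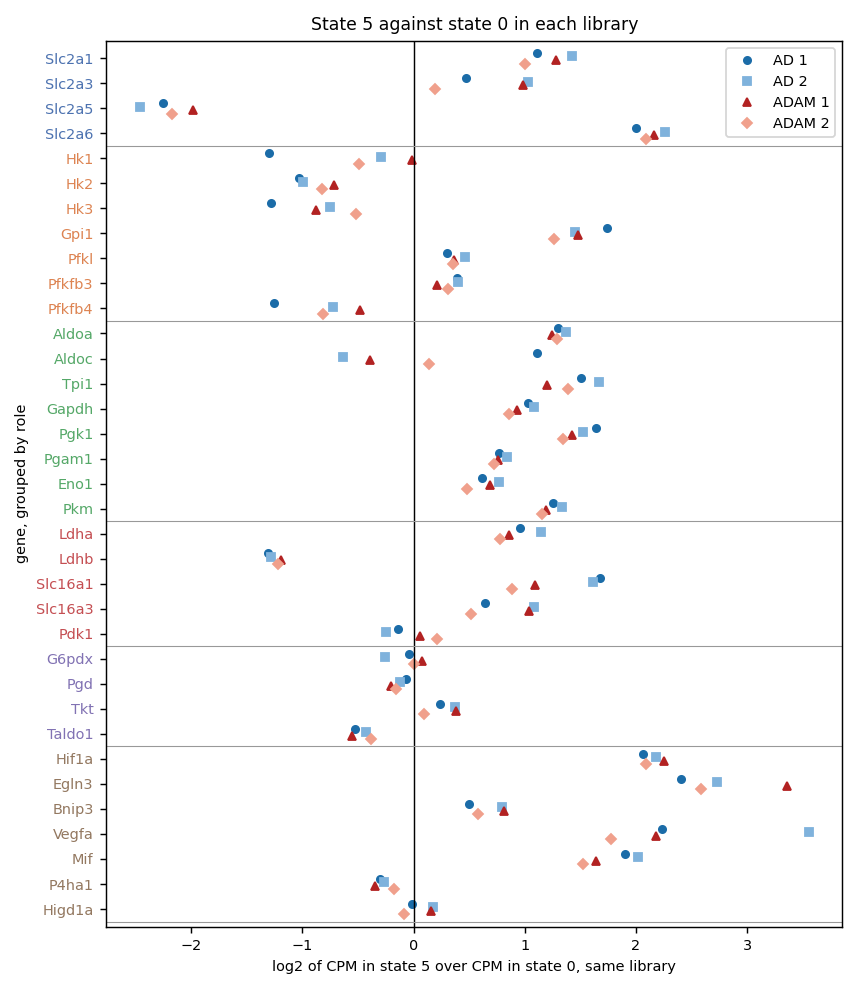
Log2 ratio of the CPM of state 5 over that of state 0 within each library (x axis) for the 35 members compared (y axis, grouped and coloured by role, with 1 point per library). Hif1a, Egln3, Vegfa and Slc2a6 lie near or above 2 in most libraries and Slc2a5 near -2; of the members left of or across 0, Hk1, P4ha1, Pgd, Pdk1, G6pdx and Higd1a change direction class under TMM scaling.

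Among the transporters, Slc2a5, which encodes the fructose carrier GLUT5 and is typical of microglia, was the most unlike the rest. Slc2a5 in state 0 was 342 and 286 CPM in the AD libraries and 268 and 219 CPM in the ADAM libraries. In state 5 it was 71.8 and 51.9 CPM in the AD libraries and 67.8 and 48.5 CPM in the ADAM libraries, a mean log2 ratio of -2.22 ± 0.20 (SD, n = 4), and no library of one state reached the range of the other. Slc2a1, which encodes the glucose carrier GLUT1, went the other way. It was 31.6 and 23 CPM in the AD libraries and 35.8 and 28.5 CPM in the ADAM libraries in state 0. State 5 held 68.3 and 61.6 CPM in the AD libraries and 87.3 and 57.1 CPM in the ADAM libraries, again with no overlap (log2 ratio 1.21 ± 0.18). Slc2a6, encoding a lysosomal carrier of the same family, had a log2 ratio of 2.13 ± 0.11 at levels of 2.3 to 3.48 CPM in state 0 and 10.3 to 13.9 CPM in state 5. Slc2a3, encoding the neuronal and leukocyte carrier GLUT3, was low in both states (log2 ratio 0.67 ± 0.40).

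The first steps split in direction. All 3 hexokinase genes, whose products trap glucose as glucose 6-phosphate, were lower in state 5 in all 4 libraries, although Hk1 became mixed under TMM scaling. Hk2 was 265 and 257 CPM in the AD libraries and 220.2 and 326 CPM in the ADAM libraries in state 0 and 130.2 and 129 CPM in the AD libraries and 134 and 184 CPM in the ADAM libraries in state 5 (log2 ratio -0.89 ± 0.15). Every state 5 value of Hk2 was below every state 0 value. Hk3 had a log2 ratio of -0.86 ± 0.32 and Hk1 one of -0.52 ± 0.55. Pfkfb4, which sets the allosteric activator of phosphofructokinase, was lower as well (-0.82 ± 0.32), whereas its paralogue Pfkfb3 was higher (0.33 ± 0.09). Gpi1, the isomerase that follows hexokinase, was 130.2 and 143 CPM in the AD libraries and 169 and 166 CPM in the ADAM libraries in state 0 and 434 and 392 CPM in the AD libraries and 468 and 398 CPM in the ADAM libraries in state 5. Its log2 ratio was 1.48 ± 0.19, with no overlap between the states. Pfkl, the liver-type phosphofructokinase gene, was slightly higher (0.37 ± 0.07), and Pfkm and Pfkp had too few UMIs in both states to compare.

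From aldolase to pyruvate kinase, 7 of 8 members were higher in state 5 in every library, with a median log2 ratio of 1.11. Pgk1, the first step that makes ATP, was 76.1 and 78.8 CPM in the AD libraries and 100.3 and 93.7 CPM in the ADAM libraries in state 0. In state 5 it was 237 and 226 CPM in the AD libraries and 269 and 238 CPM in the ADAM libraries (log2 ratio 1.48 ± 0.13). Tpi1, which interconverts the triose phosphates, had a ratio of 1.44 ± 0.20, Aldoa, the main aldolase gene, 1.30 ± 0.05, and Pkm, encoding pyruvate kinase, 1.24 ± 0.08. The increments were smaller for Gapdh (0.98 ± 0.10), Pgam1 (0.77 ± 0.05) and Eno1 (0.64 ± 0.12), which encode the dehydrogenase, mutase and enolase between them. The ratios of the 7 ranged from 0.64 to 1.48, with library SDs of 0.05 to 0.20. Aldoc, the brain aldolase gene, was the mixed one, at under 5 CPM in both states in every library. The copies Eno1b and Gapdhs, which could share reads with Eno1 and Gapdh, reached at most 7.92 CPM and 1 UMI in any library of the 10 sets.

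For lactate, Ldha and Ldhb differed in opposite directions. Ldha, whose subunit favours making lactate, was 171 and 144 CPM in the AD libraries and 197 and 185 CPM in the ADAM libraries in state 0. It was 332 and 320.2 CPM in the AD libraries and 357 and 317 CPM in the ADAM libraries in state 5 (log2 ratio 0.93 ± 0.16). Ldhb, whose subunit favours using lactate, was 592 and 611 CPM in the AD libraries and 609 and 498 CPM in the ADAM libraries in state 0 and 239.7 and 252 CPM in the AD libraries and 266 and 214 CPM in the ADAM libraries in state 5. Its log2 ratio of -1.25 ± 0.05 was close to the same in all 4 libraries. The lactate transporter genes Slc16a1 (MCT1) and Slc16a3 (MCT4) were higher in state 5, by 1.32 ± 0.39 and 0.82 ± 0.28. Pdk1, the kinase that holds pyruvate back from mitochondria, was mixed (-0.03 ± 0.20).

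The pentose phosphate genes stayed near their state 0 levels, with ratios between -0.47 and 0.27. Taldo1, the transaldolase gene, was 209.8 and 212 CPM in the AD libraries and 210.1 and 187 CPM in the ADAM libraries in state 0 and 146 and 158 CPM in the AD libraries and 144 and 143 CPM in the ADAM libraries in state 5. It was the only one of the 4 that was lower in all libraries under both scalings (-0.47 ± 0.08). Tkt, encoding transketolase, was slightly higher (0.27 ± 0.14). G6pdx and Pgd, the genes of the 2 oxidative dehydrogenases, had log2 ratios of -0.06 ± 0.14 and -0.14 ± 0.06, and their sign depended on the scaling as given above.

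The largest ratios were among the hypoxia genes. Hif1a was 137 and 119 CPM in the AD libraries and 117 and 146 CPM in the ADAM libraries in state 0. State 5 had 575 and 538 CPM in the AD libraries and 558 and 623 CPM in the ADAM libraries (log2 ratio 2.15 ± 0.09). Egln3, the oxygen-sensing prolyl hydroxylase that marks the Hif1a product for degradation, was 5.36 and 4 CPM in the AD libraries and 5.2 and 5.97 CPM in the ADAM libraries in state 0 and 28.3 and 26.5 CPM in the AD libraries and 53.3 and 35.8 CPM in the ADAM libraries in state 5 (log2 ratio 2.77 ± 0.41). Both genes were higher in each library of state 5 than in any library of state 0. Mif, a cytokine gene with hypoxia-responsive expression, had a ratio of 1.77 ± 0.23, and Bnip3, a mitophagy receptor gene, one of 0.67 ± 0.16. Vegfa, the angiogenic factor, had a ratio of 2.44 ± 0.78 on only 6 to 18 UMIs per library in state 0. Ndrg1 was not compared, because state 0 held 0 to 3 UMIs of it per library and state 5 held 11 to 23. P4ha1, a collagen prolyl hydroxylase gene, was slightly lower (-0.27 ± 0.07, mixed under TMM scaling) and Higd1a, a mitochondrial hypoxia gene, was mixed (0.06 ± 0.13).

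The motif of the printed windows was not limited to members that were higher in state 5. It was present in 10 of the 21 higher members with a window (47.6%) and 3 of 9 lower members (33.3%), the latter Hk2, Hk3 and P4ha1. Hif1a, Pgk1, Ldha, Egln3, Slc16a1, Slc16a3, Slc2a1, Bnip3, Pgam1 and Pfkfb3 were the 10. Gapdh, Aldoa, Tpi1 and Mif held neither ACGTG nor CACGT in these 250 bases. Hk2, printed above with 2 CACGT matches, was lower in state 5.

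Outside the 38, the wider list did not show the same balance. Of its 44 compared genes, 11 were higher in state 5 in all libraries (17.1% of all genes), 21 lower (58.5% of all genes) and 12 mixed. Their median was -0.23, against -0.36 for all genes. Bhlhe40, a transcription factor gene responsive to hypoxia, had a log2 ratio of 4.58 ± 0.47 and Ankrd37, a hypoxia target, 1.67 ± 0.47. Pygl, encoding glycogen phosphorylase, had 1.44 ± 0.46. Ddit4, another gene that answers hypoxia and stress, was lower by 2.48 ± 0.51. These 4 were chosen after their values were seen. In all, 4 genes of the wider list were at least 2-fold higher (4.93% of all genes) and 4 at least 2-fold lower (11.4% of all genes). The ones not yet named were Tigar (1.60 ± 0.48), Eno3 (-1.44 ± 0.41), H6pd (-1.39 ± 0.11) and Slc2a9 (-1.30 ± 0.43).

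The smaller states stood on either side of this pair. State 4, with 23 to 62 cells per library, had the highest mean of 6 members over the 9 sets compared (5 microglia states and 4 other classes with at least 20 cells in every library), among them Aldoa (922 to 1075 CPM) and Pkm (716 to 842 CPM). Aldoa in state 4 was above its state 5 level in every library. Hif1a did not follow: it was 147 to 213 CPM in state 4 and 538 to 623 CPM in state 5. State 4 held 106 to 230.4 CPM of Pgd and 306 to 632 CPM of Taldo1, above the 60.1 to 65.2 CPM and 143 to 158 CPM of state 5. State 6, which had 9 to 47 cells per library and no test, showed Hif1a at 577 to 709.6 CPM, Tpi1 at 361 to 447 CPM and Gapdh at 2404 to 3055 CPM. State 3 combined a high Gapdh (1452 to 1811 CPM) with Hk2 at 71.4 to 148 CPM, below each library of state 0.

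State 2 was the shallowest, with a median of 808.5 to 886.5 UMIs per cell against 4145 to 7883 in states 0 and 5. It had the highest mean of 7 members, including Hk2 (323 to 481 CPM) and P4ha1 (152 to 307 CPM), and the lowest mean of 5 of the 8 aldolase to pyruvate kinase genes, with Gapdh at 389 to 706 CPM. Aldoc in state 2 was 729 and 5.26 CPM in the AD libraries and 4.58 and 137 CPM in the ADAM libraries, so 2 libraries, and mostly AD 1, made up its mean. The AD 1 cells of state 2 also held 59638 CPM of choroid plexus markers, against 4.58 to 1571 CPM in the other libraries, and the part of those transcripts in the Aldoc value was not tested. Markers of red blood cells in ADAM 2 (169838 CPM) lower every other CPM of that library's state 2 in proportion.

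The share of Ldha among lactate dehydrogenase UMIs (Ldha plus Ldhb) does not depend on the scaling. In state 0 it was 22.5% (20.9 to 24.0) and 19.1% (18.4 to 19.9) in AD and 24.5% (23.4 to 25.5) and 27.1% (25.7 to 28.5) in ADAM, with exact Clopper-Pearson 95% intervals that cover counting error only. In state 5 it was 58.1% (56.0 to 60.2) and 56.0% (54.3 to 57.6) in AD and 57.3% (55.4 to 59.1) and 59.8% (58.0 to 61.5) in ADAM. Each library was under 28% in state 0 and over 55% in state 5, so Ldhb held the majority in one state and Ldha in the other. State 3 ranged from 24.7% to 36.3%, state 4 from 51.6% to 57.7% and state 6 from 72.5% to 77.5%. The share was 84.7% to 90.2% in T and NK cells and 84.1% to 94.4% in monocytes. Neutrophils ranged from 57.4% to 78.6%, on 14 to 801 UMIs. Macrophages spread widely, from 38.5% in AD 2 to 77.6% in ADAM 2. In all microglia the share was 39.2% and 29.5% in AD and 35.7% and 42.6% in ADAM, and the genotypes overlapped.

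**Figure D2:**
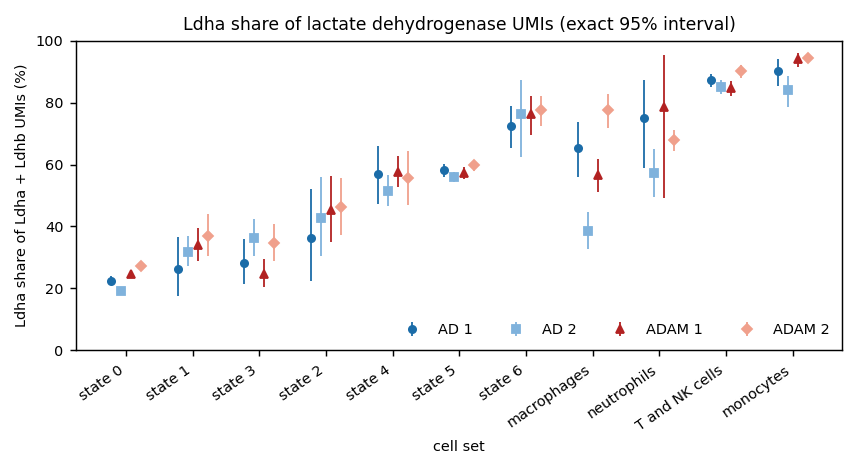
Ldha as a percentage of Ldha plus Ldhb UMIs (y axis) in 7 microglia states and 4 other classes (x axis), 1 point per library with its exact 95% interval. State 0 lies between 19.1% and 27.1%, state 5 between 56.0% and 59.8%, and monocytes and T and NK cells above 84%; intervals are wide where a library has few cells, as in neutrophils of ADAM 1 (11 cells).

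The make-up of other enzyme families also differed between classes. Hk2 made up 83.9% to 89.9% of hexokinase UMIs (Hk1, Hk2 and Hk3) in microglia and 10.0% to 26.4% in T and NK cells, where Hk1 took 69.6% to 87.3%. Pfkl was 94.2% to 97.0% of phosphofructokinase UMIs in microglia and 24.6% to 30.7% in T and NK cells. Monocytes lay between, with Hk2 at 38.2% to 56.9% and Pfkl at 34.9% to 51.9%, and Pfkl was 26.8% to 47.0% in proliferating cells. In T and NK cells Pfkp, the platelet-type gene, was 80 and 82.4 CPM in the AD libraries and 76 and 84 CPM in the ADAM libraries, and in state 0 it was 0.654 to 1.45 CPM. No library of either set came near the other. The hexokinase make-up did not differ between states in the way that lactate dehydrogenase did, since Hk2 was 81.9% to 88.7% of the family in state 5 and 83.8% to 90.7% in state 0.

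Across the 9 sets, monocytes had the highest mean for 8 members and both state 5 and state 2 for 7. All 4 pentose phosphate genes were highest in monocytes. G6pdx, the entry enzyme, was 91.1 and 81.2 CPM in the AD libraries and 91.8 and 101 CPM in the ADAM libraries there and 4.58 to 10.5 CPM in state 2, the lowest set. State 2 held only 96012 to 343004 UMIs per library, so its G6pdx level rests on a few UMIs. Taldo1 was 805 to 927 CPM and Tkt 428 to 489 CPM in monocytes, and 187 to 212 CPM and 110.3 to 129 CPM in state 0. Neutrophils, which had under 20 cells in 1 library and no test, had more Taldo1 still (1135 to 1452 CPM). They also led in Slc2a3, at 155 to 243 CPM against 20.1 to 30.3 CPM in T and NK cells, the highest of the 9 sets. 

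Within each role, 1 member had the widest range between the highest and the lowest set. Among the transporters it was Slc2a6, at 39.6 and 38.9 CPM in the AD libraries and 89.7 and 70.7 CPM in the ADAM libraries in monocytes and 0 to 1.49 CPM in T and NK cells. The Slc2a5 range came next, with state 0 84.5-fold above T and NK cells. Among the next 9 genes it was Pfkp, whose values are given above. Aldoc was the widest of the following 8, through state 2 of AD 1 and ADAM 2. Among the lactate genes it was Slc16a3, with 63.4 and 69.3 CPM in the AD libraries and 204 and 129.9 CPM in the ADAM libraries in monocytes and 2.22 to 5.52 CPM in T and NK cells. G6pdx was the widest of the pentose phosphate genes (11.7-fold, over the few UMIs of state 2). Ndrg1 was the widest of the hypoxia genes with a ratio (Vegfa was at 0 UMIs in state 3). In monocytes Ndrg1 was 33.7 and 23.7 CPM in the AD libraries and 29.9 and 29.3 CPM in the ADAM libraries. The smallest highest to lowest ratios were 2.72 for Pfkl and 2.86 for Gpi1.

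Neighbours in these orders often could not be separated. For 7 members (Hk1, Aldoa, Ldha, G6pdx, Taldo1, Hif1a and Ndrg1) every library of the highest set was above every library of the next. Hif1a belonged to these: state 5 was above state 2, the next set, in all 4 libraries (166 to 293 CPM in state 2). Endothelial cells, at 3 to 21 cells per library, had a Slc2a1 level of 1574 to 2981 CPM, far above any immune class; GLUT1 is the glucose carrier of the blood-brain barrier. Oligodendrocytes, at 3 to 8 cells, held 625 to 1191 CPM of Ndrg1.

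**Figure D3:**
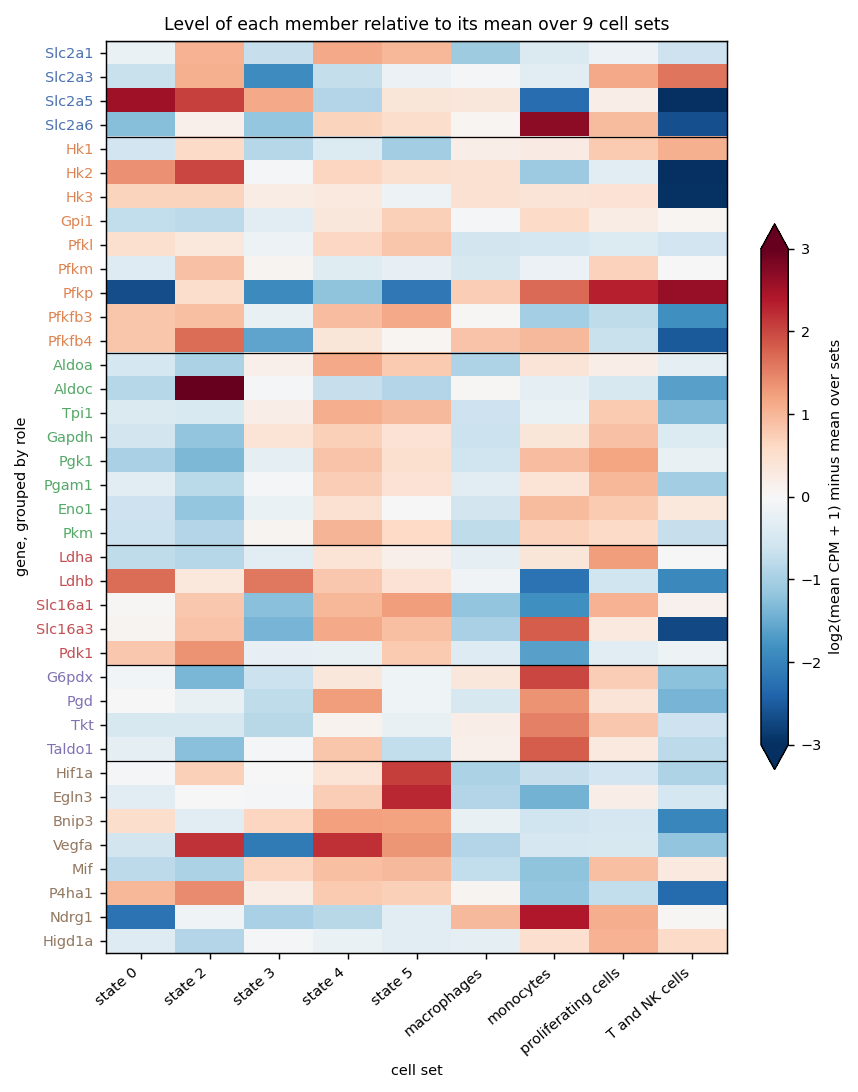
Level of each of the 38 members (y axis, grouped by role) in 9 cell sets (x axis), as log2(mean CPM over 4 libraries + 1) minus the member's mean over the sets. Red is above and blue below the member's own mean; the pentose phosphate genes are reddest in monocytes, Hif1a and Egln3 in state 5, and the Aldoc cell of state 2 comes from AD 1 (729 CPM) and ADAM 2 (137 CPM).

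The comparison of ADAM with AD asks whether loss of both receptors changes these genes. Within each of 10 cell sets, UMI sums per library were compared with edgeR's quasi-likelihood test and adjusted over all genes. No member passed an adjusted p of 0.05 in any set with edgeR, DESeq2 or limma-voom, so no member is reported as changed between genotypes. Log2 ratios of ADAM over AD below are on the TMM scale, given ± 1 standard error, and ratios of the CPM values can differ slightly from them. Since a group has 2 libraries, 1 library could set a ratio. The values nearest to 0 without it are given for the ratios that depended on it most. Complete separation of 2 from 2 libraries has an exact two-sided permutation p of 0.333. A lack of overlap between the groups below is therefore a description and not a test.

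In all microglia, 28 of 38 members had a positive log2 ratio and the median was 0.14, against 0.00 for all genes. edgeR called 0 members, with 0.0419% of all genes called. At an unadjusted p under 0.05 (2.35% of all genes) there was 1 member higher (1.33% of all genes) and 1 lower (1.02%), while DESeq2 had 1 and limma-voom 2 such members. Egln3 was 17.5 and 10.6 CPM in AD and 22.1 and 19.9 CPM in ADAM, a log2 ratio of 0.68 ± 0.25 (adjusted p = 1 by edgeR). Hk1 was 11.3 and 12.4 CPM in AD and 9.59 and 8.3 CPM in ADAM, a log2 ratio of -0.35 ± 0.15 (adjusted p = 1 by edgeR). The groups did not overlap for either gene. Slc16a3 was 45.5 and 36.1 CPM in AD and 55.4 and 44.3 CPM in ADAM, a log2 ratio of 0.35 ± 0.15 (adjusted p = 1 by edgeR), and Slc2a5 194 and 206 CPM in AD and 189 and 129.7 CPM in ADAM, a log2 ratio of -0.28 ± 0.17 (adjusted p = 1 by edgeR). Without AD 2, Egln3 was 0.30 and Slc16a3 0.17, without AD 1 Egln3 was 1.05 and Slc16a3 0.53, without ADAM 1 Slc16a3 was 0.21 and Slc2a5 -0.54, and without ADAM 2 Slc2a5 was -0.06. The median depended on the AD libraries: it was 0.30 without AD 1 and 0.03 without AD 2. Microglia of AD 1 held 9342 CPM of the markers of disease-associated microglia, against 4270 to 5777 CPM in the other libraries. With the tested states weighted equally the median was 0.13, over only the members that were tested in every one of those states.

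In state 0, 7 of the 8 members from aldolase to pyruvate kinase had a positive log2 ratio of ADAM over AD. Of 36 members tested, 27 had a positive log2 ratio, with a median of 0.19 against 0.01 for all genes. edgeR called none of them (0.101% of all genes were called). Unadjusted p was under 0.05 for 10 members (4.22% of all genes), 8 higher in ADAM (2.51%) and 2 lower (1.7%); DESeq2 had 5 members and limma-voom 9 in either direction. The 8 were Mif, Pgk1, Tpi1, Gpi1, Ldha, Slc16a3, Vegfa and Slc2a1, and the 2 were Hk1 and Slc2a5. Mif was 169.9 and 141 CPM in AD and 208 and 202 CPM in ADAM, a log2 ratio of 0.49 ± 0.11 (adjusted p = 0.273 by edgeR). Pgk1 was 76.1 and 78.8 CPM in AD and 100.3 and 93.7 CPM in ADAM, a log2 ratio of 0.40 ± 0.11 (adjusted p = 0.563 by edgeR). Tpi1 was 115 and 92.6 CPM in AD and 157 and 119 CPM in ADAM, a log2 ratio of 0.51 ± 0.14 (adjusted p = 0.581 by edgeR). For these 3 genes both ADAM libraries were above both AD libraries, by margins that for Tpi1 were small beside the spread within ADAM. Gpi1, on the chromosome of Axl, was 130.2 and 143 CPM in AD and 169 and 166 CPM in ADAM, a log2 ratio of 0.36 ± 0.11 (adjusted p = 0.791 by edgeR). Without ADAM 1, Tpi1 was 0.32, and without ADAM 2 it was 0.68. Markers of neutrophils in state 0 were 688 CPM in ADAM 2 and 8.58 to 26.4 CPM in the other libraries. The median share of mitochondrial UMIs per cell was 2.65% and 2.54% in AD and 3.18% and 2.97% in ADAM, and the part of either in these folds was not tested.

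State 5 was near balance for most members. Of 38 tested, 24 had a positive log2 ratio and the median was 0.04, against 0.00 for all genes. edgeR called none (0.153% of all genes were called), and unadjusted p was under 0.05 for 2 members (5.3% of all genes), both higher (2.49%) and 0 lower (2.81%), against 1 member each by DESeq2 and limma-voom. Egln3 was 28.3 and 26.5 CPM in AD and 53.3 and 35.8 CPM in ADAM, a log2 ratio of 0.69 ± 0.18 (adjusted p = 0.319 by edgeR). Hk2 was 130.2 and 129 CPM in AD and 134 and 184 CPM in ADAM, a log2 ratio of 0.30 ± 0.14 (adjusted p = 0.941 by edgeR). In Egln3 the distance came mostly from ADAM 1 (0.38 without it) and in Hk2 from ADAM 2 (0.05 without it). Without ADAM 2, Egln3 was 0.96, and without ADAM 1, Hk2 was 0.50. Ndrg1 was 2.78 and 2.43 CPM in AD and 4.71 and 4.12 CPM in ADAM, a log2 ratio of 0.76 ± 0.36 (adjusted p = 0.952 by edgeR). Slc16a1 was 22.2 and 20.7 CPM in AD and 17.3 and 16.8 CPM in ADAM, a log2 ratio of -0.33 ± 0.16 (adjusted p = 0.954 by edgeR). The median was 0.10 without AD 1, 0.00 without AD 2, 0.12 without ADAM 2 and -0.07 without ADAM 1, so it has no stable sign.

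**Figure D4:**
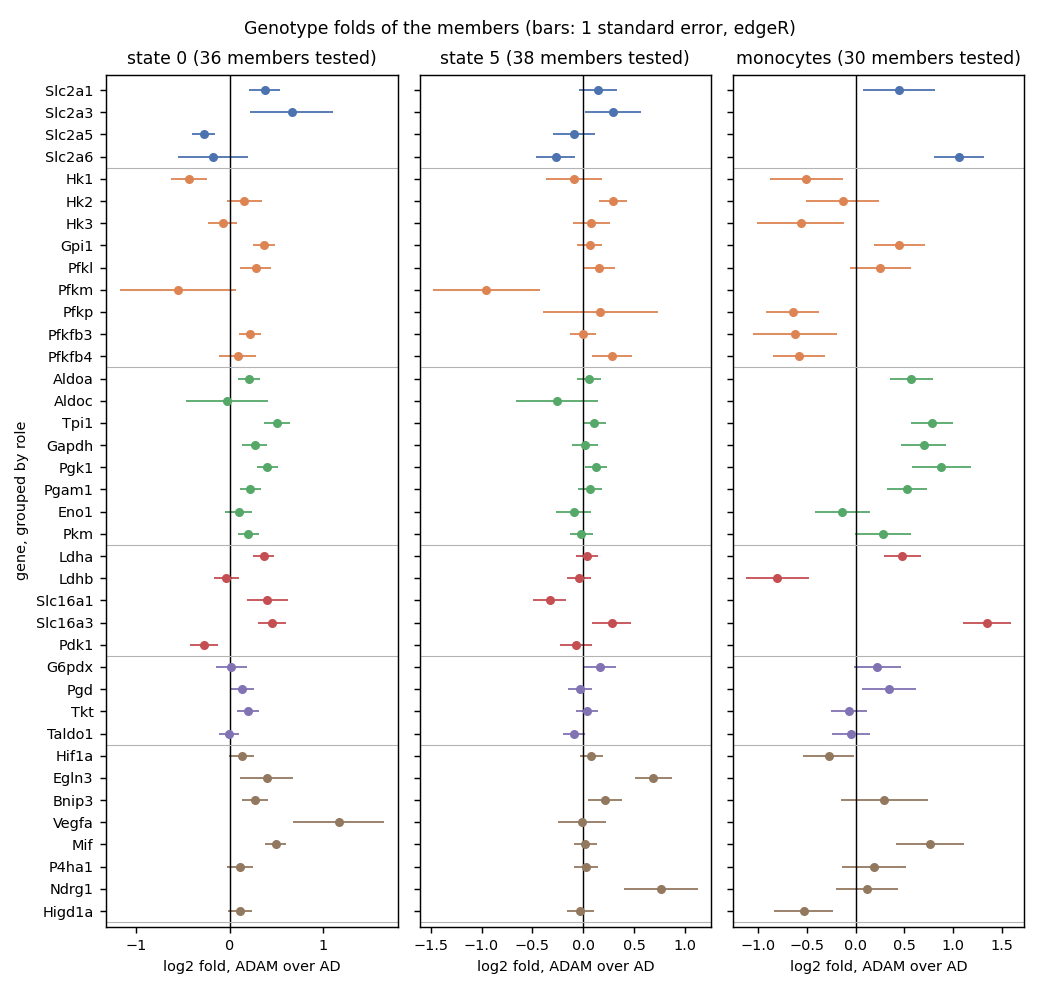
Log2 fold of ADAM over AD for each member tested (x axis, edgeR on the TMM scale, bars 1 standard error; members grouped and coloured by role on the y axis) in state 0, state 5 and monocytes, each panel on its own x scale. Most of the aldolase to lactate genes lie right of 0 in state 0 (Tpi1 at 0.51) and in monocytes and near 0 in state 5 (Tpi1 at 0.11), and no member passed the adjusted threshold.

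The other microglia states gave little resolution. In state 2, 18 of 25 members were positive (median 0.21, all genes 0.01), in state 3, 11 of 23 (0.00, all genes 0.01), and in state 4, 14 of 26 (0.01, all genes 0.00). No member was called by edgeR (0.0635%, 0.313% and 0.127% of all genes were called), DESeq2 or limma-voom, and none had an unadjusted p under 0.05 by any of the 3. The shares of all genes at that p by edgeR were 3.05% in state 2 (1.78% higher and 1.27% lower), 4.95% in state 3 (2.48% each way) and 3.35% in state 4 (1.5% higher and 1.85% lower). In state 2, Slc16a3 was 20.8 and 52.6 CPM in AD and 114 and 49.6 CPM in ADAM, a log2 ratio of 1.05 ± 0.54 (adjusted p = 1 by edgeR), and Pkm 239.6 and 100 CPM in AD and 219.8 and 271 CPM in ADAM, a log2 ratio of 0.70 ± 0.48 (adjusted p = 1 by edgeR). Aldoa there was 239.6 and 147 CPM in AD and 252 and 289 CPM in ADAM, a log2 ratio of 0.62 ± 0.43 (adjusted p = 1 by edgeR), and Taldo1 72.9 and 78.9 CPM in AD and 59.5 and 201 CPM in ADAM, a log2 ratio of 1.01 ± 0.73 (adjusted p = 1 by edgeR). The Taldo1 fold rested on ADAM 2 and was -0.40 without it. In state 3, Higd1a was 122 and 74 CPM in AD and 69.4 and 46 CPM in ADAM, a log2 ratio of -0.68 ± 0.35 (adjusted p = 0.988 by edgeR), and Eno1 245 and 225 CPM in AD and 179.8 and 166 CPM in ADAM, a log2 ratio of -0.43 ± 0.23 (adjusted p = 0.999 by edgeR). Pdk1 was 20.4 and 47.5 CPM in AD and 18 and 28.1 CPM in ADAM, a log2 ratio of -0.70 ± 0.49 (adjusted p = 0.999 by edgeR), with the sign set by AD 2 (0.20 without it), and Hif1a 96.9 and 137 CPM in AD and 136 and 174 CPM in ADAM, a log2 ratio of 0.36 ± 0.28 (adjusted p = 0.999 by edgeR). In state 4, Tpi1 was 278 and 327 CPM in AD and 446 and 358 CPM in ADAM, a log2 ratio of 0.37 ± 0.24 (adjusted p = 1 by edgeR), and Pgk1 400.0 and 326 CPM in AD and 343 and 191 CPM in ADAM, a log2 ratio of -0.41 ± 0.27 (adjusted p = 1 by edgeR). Slc2a1 was 77.8 and 91.6 CPM in AD and 69 and 63.7 CPM in ADAM, a log2 ratio of -0.41 ± 0.33 (adjusted p = 1 by edgeR), and Higd1a 55.6 and 62.2 CPM in AD and 92.1 and 68.6 CPM in ADAM, a log2 ratio of 0.42 ± 0.34 (adjusted p = 1 by edgeR). All 12 of these differences were within about 2 standard errors of 0, and in the 3 states single libraries moved most of them. In state 2, Pkm was 0.09 and Aldoa 0.22 without AD 2, and Slc16a3 was 0.64 without ADAM 1. In state 3, Higd1a was -0.37 without AD 1 and Hif1a 0.15 without ADAM 2. In state 4, Pgk1 was -0.07 without ADAM 2, Slc2a1 -0.20 without AD 2, and Tpi1 and Higd1a 0.18 and 0.14 without ADAM 1. Of the 12, Eno1 in state 3 stayed within -0.48 to -0.38. The state 2 median was 0.45 without AD 1, 0.10 without AD 2 and 0.13 without ADAM 2. The state 3 median was -0.08 without AD 1, 0.12 without AD 2, -0.12 without ADAM 1 and 0.08 without ADAM 2. The state 4 median was -0.02, 0.04, -0.14 and 0.08 without the same libraries in turn.

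Monocytes, which enter from blood, had 10 members at an unadjusted p under 0.05. Of 30 members tested, 18 were positive, with a median of 0.24 against 0.00 for all genes. edgeR called none (0.155% of all genes were called), and 8.51% had an unadjusted p under 0.05, as did 8 members higher (3.81% of all genes) and 2 lower (4.71%); DESeq2 had 5 and limma-voom 10 such members. Slc16a3, the exporter of lactate from strongly glycolytic cells, was 63.4 and 69.3 CPM in AD and 204 and 129.9 CPM in ADAM, a log2 ratio of 1.35 ± 0.25 (adjusted p = 0.114 by edgeR). Slc2a6 was 39.6 and 38.9 CPM in AD and 89.7 and 70.7 CPM in ADAM, a log2 ratio of 1.06 ± 0.25 (adjusted p = 0.212 by edgeR). In both genes each ADAM library was well above each AD library, with ADAM 1 the highest. Tpi1 was 109 and 105 CPM in AD and 172 and 183 CPM in ADAM, a log2 ratio of 0.79 ± 0.22 (adjusted p = 0.306 by edgeR). Gapdh was 1321 and 1216 CPM in AD and 1689 and 2254 CPM in ADAM, a log2 ratio of 0.70 ± 0.23 (adjusted p = 0.421 by edgeR). Pgk1, Aldoa, Pgam1 and Ldha had folds of 0.48 to 0.88, and Ldhb and Pfkp were the 2 lower ones, at -0.80 and -0.65.

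ADAM 2 weighed on the monocyte values. Its monocytes held 72753 CPM of markers of neutrophils, against 93.1, 2053 and 4501 CPM in AD 1, AD 2 and ADAM 1, and its median depth was 8723 UMIs per cell against 5634 to 5775. Without ADAM 2, the median was 0.03 and Slc16a3 had a log2 fold of 1.57. The median was 0.38 without ADAM 1 and 0.36 without AD 1. Gapdh was 0.36 without ADAM 2. The markers of monocytes were 12756 and 11297 CPM in AD and 5123 and 10465 CPM in ADAM, and their part in the folds was not tested.

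Proliferating cells, a class of 38 to 63 cells per library defined by cell cycle genes, had the largest median, 0.69 over 33 members, with 26 positive (all genes 0.03). edgeR called none (0.0842% of all genes were called), and 10 members were higher and 0 lower at an unadjusted p under 0.05 (8.73% of all genes, 4.37% in each direction), against 8 members each by DESeq2 and limma-voom. Slc2a6 was 3.43 and 2 CPM in AD and 40.9 and 22.3 CPM in ADAM, a log2 ratio of 3.66 ± 0.78 (adjusted p = 0.138 by edgeR). G6pdx was 13.7 and 18 CPM in AD and 61.3 and 56.3 CPM in ADAM, a log2 ratio of 1.99 ± 0.46 (adjusted p = 0.166 by edgeR). Both were higher in each ADAM library than in either AD library. The class held only 291361 and 498696 UMIs in AD 1 and AD 2. Slc2a6 there came to very few UMIs, so its ratio is limited by counting. Pgd was 58.3 and 42.1 CPM in AD and 125 and 129.7 CPM in ADAM, a log2 ratio of 1.50 ± 0.38 (adjusted p = 0.22 by edgeR). Ndrg1 was 3.43 and 0 CPM in AD and 19.2 and 22.3 CPM in ADAM, a log2 ratio of 3.94 ± 1.04 (adjusted p = 0.243 by edgeR). Summed markers of T and NK cells in this class were 3480 and 1660 CPM in AD and 751 and 706 CPM in ADAM, and those of neutrophils 10.3 and 182 CPM against 109.8 and 19306 CPM, and the part of these cells in the ratios was not tested. Ndrg1 was 6.99 without AD 1, which leaves AD 2, with 0 UMIs of it, as the only AD library. The median was 0.93 without ADAM 1 and 0.39 without ADAM 2.

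No member was called in T and NK cells or macrophages. In T and NK cells, 20 of 32 members were positive (median 0.05, all genes -0.01), none called by edgeR (0.241% of all genes), with 1 higher (2.85% of all genes) and 1 lower (2.35%) at an unadjusted p under 0.05 (5.2% in all) and 0 by DESeq2 and 2 by limma-voom. Slc2a3 was 30.3 and 28.8 CPM in AD and 20.1 and 20.4 CPM in ADAM, a log2 ratio of -0.53 ± 0.19 (adjusted p = 0.72 by edgeR). Hk2 was 6.49 and 4.75 CPM in AD and 7.49 and 14.5 CPM in ADAM, a log2 ratio of 0.98 ± 0.37 (adjusted p = 0.796 by edgeR). Neither gene overlapped between groups, but Hk2 was 0.42 without ADAM 2. Tkt was 96.7 and 96 CPM in AD and 114 and 113 CPM in ADAM, a log2 ratio of 0.25 ± 0.13 (adjusted p = 0.999 by edgeR), and Slc16a3 4.02 and 2.22 CPM in AD and 5.52 and 4.83 CPM in ADAM, a log2 ratio of 0.73 ± 0.46 (adjusted p = 0.999 by edgeR). Slc16a3 was 0.38 without AD 2 and 1.21 without AD 1. The median was -0.05 without ADAM 1, 0.16 without ADAM 2 and 0.11 without AD 1. In macrophages, 21 of 28 were positive (median 0.18, all genes -0.01), none called by edgeR (0.0154% of all genes), with 1 higher (0.91% of all genes) and 0 lower (1.3%) at an unadjusted p under 0.05 (2.21% in all), 0 by DESeq2 and 1 by limma-voom. Pgk1 was 104 and 63.9 CPM in AD and 126 and 160.3 CPM in ADAM, a log2 ratio of 0.82 ± 0.33 (adjusted p = 1 by edgeR). Pfkl was 26.1 and 24.3 CPM in AD and 46.8 and 38.2 CPM in ADAM, a log2 ratio of 0.79 ± 0.38 (adjusted p = 1 by edgeR). Pgam1 was 124 and 125 CPM in AD and 138 and 233 CPM in ADAM, a log2 ratio of 0.59 ± 0.32 (adjusted p = 1 by edgeR), and Slc2a5 49 and 94.3 CPM in AD and 56 and 40.1 CPM in ADAM, a log2 ratio of -0.60 ± 0.35 (adjusted p = 1 by edgeR). Without AD 2, Pgk1 was 0.45 and Slc2a5 -0.01, and without ADAM 2 Pgam1 was 0.16. The macrophage median was 0.34 without AD 1, 0.31 without ADAM 1 and 0.08 without ADAM 2.

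Of the wider list, edgeR called 0 genes in the 10 sets, with 0 to 4 higher and 0 to 2 lower at an unadjusted p under 0.05. In state 0, Ankrd37 was 4.82 and 4.95 CPM in AD and 9.07 and 7.03 CPM in ADAM, a log2 ratio of 0.80 ± 0.24 (adjusted p = 0.779 by edgeR). Eno3, a muscle enolase gene, was 18.2 and 19.6 CPM in AD and 12.8 and 12.8 CPM in ADAM, a log2 ratio of -0.50 ± 0.17 (adjusted p = 0.924 by edgeR). Neither gene overlapped between genotypes. In state 5, Ier3, an early response gene, was 185 and 200.1 CPM in AD and 248 and 388 CPM in ADAM, a log2 ratio of 0.72 ± 0.20 (adjusted p = 0.609 by edgeR), and Gbe1, the glycogen branching enzyme gene, was 13.1 and 10.5 CPM in AD and 15.4 and 16.3 CPM in ADAM, a log2 ratio of 0.44 ± 0.19 (adjusted p = 0.893 by edgeR). In monocytes, Bhlhe40 was 23.8 and 44 CPM in AD and 153 and 76 CPM in ADAM, a log2 ratio of 1.73 ± 0.39 (adjusted p = 0.185 by edgeR). Pygl there was 111 and 122 CPM in AD and 157 and 251 CPM in ADAM, a log2 ratio of 0.89 ± 0.31 (adjusted p = 0.45 by edgeR). The 2 genes with the smallest p in proliferating cells were Ero1l, an oxidase gene of the endoplasmic reticulum, with a log2 ratio of 2.14 ± 0.52 (adjusted p = 0.203 by edgeR), and Pygl, with a log2 ratio of 2.20 ± 0.55 (adjusted p = 0.21 by edgeR). In the remaining 6 sets the 2 smallest belonged to Ero1l and Eno3 (microglia), Cited2 and Mpc2 (state 2), Mpc1 and Slc2a8 (state 3), Cited2 and Egln1 (state 4), Pdp1 and Pygl (T and NK cells) and Cited2 and Rpe (macrophages), with edgeR adjusted p from 0.87 to 1.

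Whether the genotype difference itself differs between states 0 and 5 was tested as an interaction, with the library as a term. Mif and Tpi1 passed: the ADAM over AD log2 fold was lower in state 5 than in state 0 by 0.47 for Mif (SE 0.12, edgeR adjusted p = 0.0134) and by 0.39 for Tpi1 (SE 0.11, edgeR adjusted p = 0.0499). They were 2 of 38 members, both in the lower direction, where 0.755% of all 11132 genes were called lower and 1.02% in either direction. In each AD library the step from state 0 to state 5 was larger than in either ADAM library for Mif (log2 1.902 and 2.02 against 1.641 and 1.525). The steps for Tpi1 were 1.51 and 1.67 in AD and 1.20 and 1.39 in ADAM, again without overlap.

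Mif in state 0 was 169.9 and 141 CPM in the AD libraries and 208 and 202 CPM in the ADAM libraries, and in state 5 635 and 571 CPM in the AD libraries and 649 and 579.8 CPM in the ADAM libraries. Tpi1 was 115 and 92.6 CPM in the AD libraries and 157 and 119 CPM in the ADAM libraries in state 0 and 326 and 295 CPM in the AD libraries and 361 and 311 CPM in the ADAM libraries in state 5. For both genes the genotypes were apart in state 0 and overlapped in state 5. At an unadjusted p under 0.05 there were 7 members lower (5.16% of all genes) and 0 higher (3.72% of all genes), and 29 of 38 estimates were negative, with a median of -0.15 against -0.01 for all genes. The others of the 7 were Ldha (-0.33, SE 0.11), Gpi1 (-0.29, SE 0.11), Pgk1 (-0.27, SE 0.11), Slc16a1 (-0.71, SE 0.26) and Vegfa (-1.29, SE 0.48), with edgeR adjusted p from 0.153 to 0.375. Of the 9 members from hexokinase to fructose bisphosphate, 5 estimates were negative and 4 positive, the latter Hk1, Hk2, Hk3 and Pfkfb4 at 0.31 or less. No gene of the wider list was called (3 lower and 1 higher at an unadjusted p under 0.05).

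Each call was lost when 1 of 3 libraries was left out. Without AD 1 neither gene passed (edgeR adjusted p = 0.181 for Mif and 0.273 for Tpi1), nor without AD 2 (0.309 and 0.515). Without ADAM 1 only Mif passed (Tpi1 adjusted p = 0.265 by edgeR), and without ADAM 2 only Tpi1 (Mif adjusted p = 0.0512 by edgeR). The estimates kept their sign in each case, from -0.56 to -0.39 for Mif and from -0.46 to -0.32 for Tpi1. Scaling by DESeq2 size factors kept both calls.

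**Figure D5:**
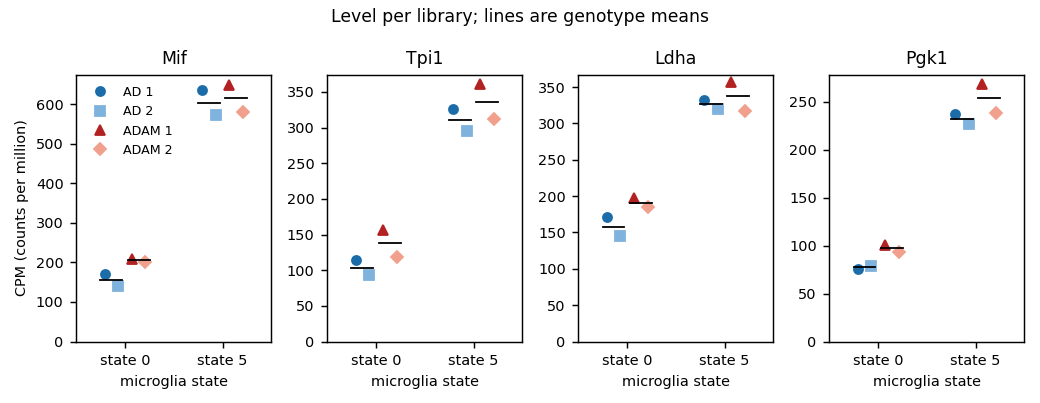
CPM (y axis, from 0) of Mif, Tpi1, Ldha and Pgk1 in state 0 and state 5 (x axis), 1 point per library, with black lines for the mean of each genotype. In state 0 the ADAM libraries lie above the AD libraries in each panel, for Mif at 208.2 and 201.5 against 169.9 and 140.9 CPM; in state 5 the genotypes overlap for Mif, Tpi1 and Ldha.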

How the data were processed

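The 4 libraries of sorted CD45+ brain cells (AD 1 and 2, ADAM 1 and 2) were analysed. The authors deposited raw UMI counts per gene and cell, with a table giving each cell's library, class, state, doublet marks and percent of mitochondrial UMIs; mm10 is the genome named per the submitters' processing notes, which also list Seurat 3.2.1.9002 and Cell Ranger 3.1.0 without their roles. Doublets marked by the authors (823 cells and 216 microglia and T cell doublets, 209 of these in AD 1) were left out. Counts were summed per library and cell set, and a set was tested where every library held 20 or more of its cells, which left 10 sets. edgeR 4.0.16 (R 4.3.3) was run with TMM (factors 0.917 to 1.06), filterByExpr at a minimum count of 10, the robust quasi-likelihood test and Benjamini-Hochberg adjustment over all genes at 0.05, after it was tested on simulated data. DESeq2 1.42.0 and limma 3.58.1 (voom) were alternatives, as were other scalings, no filter, a replicate block, each library left out and, for all microglia, other choices of cells. Groups of 2 allow a smallest exact two-sided permutation p of 0.333 for a single gene, so only the fit across genes was used. p-values measure the spread between pools of 2 cortices, and intervals and limits cover counting error only. Levels are plain CPM, with no test between states or classes. Members with the 4 smallest p in each genotype comparison, and the widest range in each role, are given in full. The members and lists were chosen with earlier results of these data known. Promoter windows were taken from RefSeq (GRCm38.p6) and matched by symbol for 36 of 38 members; gene positions are from the GENCODE annotation of the same build. Replicate numbers were treated as labels, with the replicate block as an alternative. The deviations of AD 1 and ADAM 1 correlated at -0.22 over 11903 genes in microglia. With 2 libraries per group this value cannot show whether libraries of the same number were paired.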

Additional observations from a re-analysis of the deposited data

Results flagged for a closer look

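In 2 genes the ADAM against AD difference differed between microglia state 5 and state 0 by the interaction test, over 8 sums from 4 libraries. For Mif the difference was lower in state 5 by 0.47 on the log2 scale (estimate -0.47, SE 0.12, edgeR adjusted p = 0.0134), and its step from state 0 to state 5 was smaller in each ADAM library than in each AD library. For Tpi1 the estimate was -0.39 (SE 0.11, edgeR adjusted p = 0.0499), and its step too was smaller in each ADAM library than in each AD library. Markers of disease-associated microglia in state 5 were 18407 and 13189 CPM in AD and 12674 and 11371 CPM in ADAM, and their part in either estimate was not tested.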

How the results depend on the processing

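No member was called in any set under TMM, DESeq2 size factors, library totals, DESeq2, limma-voom or the replicate block. The block of replicate numbers also gave 0 called members in all 10 sets, and its calls over all genes went from 5 to 0 in microglia, 11 to 35 in state 0, 2 to 6 in state 2, 10 to 21 in state 3, 5 to 3 in state 4, 23 to 90 in T and NK cells, 10 to 3 in monocytes and 6 to 80 in proliferating cells. With the numbers crossed, an alternative chosen after seeing the data, 3 members were called in proliferating cells and 0 in the others. In proliferating cells that block called 172 of all 7124 genes. Without the filter on low counts, 2 members were called in state 0, Mif (edgeR adjusted p = 0.019) and Tpi1 (edgeR adjusted p = 0.0126). That setting also called 1 member in state 5 (Egln3, edgeR adjusted p = 4.9e-04), 4 in monocytes and 5 in proliferating cells. Over all genes it called 94 of 15619 in state 0 and 112 of 15032 in state 5. The all-gene calls were 276 of 13005 in monocytes and 340 of 13802 in proliferating cells. The macrophage median without the filter was 0.27. Leaving out 1 library at a time, with the lone sample of its group assumed to vary like the other group, gave 0 to 1 called members in state 0, 0 to 2 in state 5, 0 to 6 in monocytes and 0 to 15 in proliferating cells. The members' median then ranged from 0.0317 to 0.30 in microglia, 0.10 to 0.45 in state 2, -0.12 to 0.12 in state 3, -0.14 to 0.08 in state 4, -0.0687 to 0.12 in state 5, -0.0549 to 0.16 in T and NK cells, 0.0252 to 0.38 in monocytes, 0.081 to 0.34 in macrophages and 0.39 to 0.93 in proliferating cells. It changed sign in state 3 without AD 2 (0.12) and without ADAM 2 (0.08), in state 4 without AD 1 (-0.02) and without ADAM 1 (-0.14), and in state 5 and T and NK cells without ADAM 1. Taldo1 in state 2 also changed sign without ADAM 2 (range -0.40 to 1.69), and Pdk1 in state 3 without AD 2 (range -1.06 to 0.20). In the interaction test the called members ranged from 0 to 1, with Mif at -0.56 to -0.39 and Tpi1 at -0.46 to -0.32. TMM over all sets moved the state 5 over state 0 median to 0.98. The causes were not tested. With 2 libraries per group, a difference that misses the threshold is not shown to be absent. Members at a few UMIs per library are limited by counting. Among them were Pfkm, Pfkp, Vegfa and Ndrg1 in state 0, Slc2a6 and Ndrg1 in proliferating cells of AD, and G6pdx in state 2.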
